A study of Mus musculus with 2 samples.

Results

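The cells described here were barcodes with Spp1 and Tspan8 or Spink1 transcripts and almost no leukocyte transcripts, 107 of the 16305 barcodes kept from a mouse liver tumour dataset. Members were chosen by these measured counts. A barcode was taken when it held at least 3 unique molecular identifiers (UMIs, each standing for 1 captured mRNA) of Spp1 and at least 3 of Tspan8 and Spink1 together. It could hold at most 2 UMIs of the complement genes C1qa, C1qb and C1qc, at most 1 of the leukocyte gene Ptprc and none of the T cell receptor genes Cd3d, Cd3e and Cd3g. Kept barcodes had at least 300 detected genes, and mitochondrial genes gave no more than 25% of their UMIs. Of the members, 106 came from the control library and 1 from the library of inhibitor-treated mice, so their identity is described in the control library unless stated otherwise.

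The samples were droplet libraries of single cells from the hepatocellular carcinoma region of livers of C57BL/6 mice, 17 months old, that had been fed the CD-HFD diet for 15 months. One group received an inhibitor of FABP5, a cytosolic fatty acid carrier, from month 13, and the other is labelled as its control. Both groups shared the strain, the age and the diet, and no transgene is named in the labels. There was 1 library per group, and the number of mice behind each and the treatment of the controls are not stated in the labels. After collagenase digestion of the excised region, an Annexin V kit served to enrich live cells, a step that limits which cells could be seen.

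Liver epithelium holds hepatocytes, which secrete plasma proteins and run most liver metabolism, and the cholangiocytes that line the bile ducts, marked by keratins 19 and 7, Epcam and Sox9. Hepatocytes of injured or tumour-bearing liver are known to acquire some biliary and fetal genes, and Spp1 (osteopontin, a secreted glycoprotein that binds integrins and CD44) is made by bile duct cells, by some liver tumours and by some macrophages. Tspan8 encodes a tetraspanin of epithelial and tumour cells, and Spink1 encodes a secreted trypsin inhibitor.

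Members were deeply sequenced. They held 764 UMIs at the lowest, 15823.5 at the median and 71495 at the highest, with 420, 3850.5 and 7438 detected genes, and mitochondrial genes gave 0.0627%, 8.02% and 24.8% of UMIs. The rule asks for a minimum of UMIs and so favours deep barcodes. A pair of control barcode groups serves for comparison. Hepatocyte barcodes were kept barcodes that were no members, met the same leukocyte limits and drew at least 5% of UMIs from 22 genes of hepatocyte secreted proteins. There were 79, with 1620 UMIs at the median. Leukocyte barcodes, which held at least 2 Ptprc UMIs, numbered 4862 with 4694.5 UMIs at the median, and their levels of epithelial genes give a measure of free RNA. The summed UMIs were 2085554 in members, 245420 in hepatocyte barcodes and 30326406 in leukocyte barcodes. Levels are given as CPM, the UMIs of a gene scaled to a common total of these sums, and values per cell as UMIs per 10000 UMIs of the barcode. All intervals are 95% intervals that cover counting error only, and no difference here has a replicate check.

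The hepatocyte barcodes are a shallow and mixed group, which bears on every ratio to them. Of the 79, 30 held at least 3 UMIs of Tspan8 and Spink1 together and 20 held no UMI of Spp1, Tspan8 or Spink1. The deepest had 26983 UMIs, 11% of the group's sum, with 105 UMIs of Tspan8 and Spink1, 328 of Clu and 1 of Spp1. Haemoglobin and other erythroid marker genes reached 27206 CPM in hepatocyte barcodes, 2901 CPM in members and 5337 CPM in leukocyte barcodes. Of the members, 3 had over 1% haemoglobin UMIs, with 20.9% in the highest. The part of red cell RNA in the hepatocyte barcodes was not tested.

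Cells of this kind were found almost only in the control library. The control library had 106 members among 6835 kept barcodes, 1.55% (exact Clopper-Pearson interval 1.27 to 1.87). The inhibitor library had 1 among 9470, 0.0106% (0.000267 to 0.0588). Without the limits on C1q, Ptprc and Cd3 UMIs the counts were 122 and 2. Hepatocyte barcodes were also fewer, 26 in the inhibitor library, and these held 1 Spp1 UMI, no Tspan8 UMI and 1 Spink1 UMI among 244924, against 46, 154 and 187 in the 245420 UMIs of the control library's hepatocyte barcodes. With 1 library per group, the treatment, the animals, the piece of tissue cut out and the cell preparation cannot be told apart. Of the barcodes, 29 occurred in both libraries, and none of these was a member.

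The single inhibitor member differed from the summed control members in some genes and was like most control members in others. It held 42019 UMIs, 20 of them from Spp1 (476 CPM), 40 from Tspan8 (952 CPM) and 82 from Spink1. Control members summed to 13718 CPM of Spp1 and 1287 CPM of Tspan8. It had 33818 CPM of Clu, against 19239 in control members, and 7973 CPM of the cell surface gene Ly6d, against 2403. Sox9 had 214 CPM against 151, and the fetal albumin relative Afp 666 CPM against 71.0. Like most control members, it held no UMI of Epcam or Fabp5, and it held 1 of Fabp1. It was also among the 717 barcodes of its library that scored highest against simulated doublets, whereas no control member was among the 374 of its own library. Removing those barcodes left no member in the inhibitor library.

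The genes of the rule chose the members, so their values only describe the choice. Spp1 (ENSMUSG00000029304, chr5:104435118-104441050 on GRCm38, plus strand) stood at 1.44, 71.2 and 500 UMIs per 10000 at the lowest, median and highest member and summed to 13718 CPM (13559 to 13878). Tspan8 (ENSMUSG00000034127, chr10:115816832-115849893, plus strand) was found in 97 members, at 0, 8.42 and 49.9 per 10000, and Spink1 also in 97, at 0, 15.1 and 100. The sums were 1287 CPM of Tspan8 and 1694 CPM of Spink1. All members therefore carried Spp1, over a wide range, while some were taken through Tspan8 alone and some through Spink1 alone. Hepatocyte barcodes had 187 CPM of Spp1, 627 CPM of Tspan8 and 762 CPM of Spink1. In leukocyte barcodes the 3 genes stood at 157, 13.1 and 16.8 CPM.

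Members near the Spp1 limit looked different from the rest. The 15 members with 3 to 5 Spp1 UMIs had 4836 UMIs at the median, 856 CPM of Clu, 2131 CPM of the fatty acid carrier Fabp1 and 26.2 CPM of Sox9. The 91 members with 6 or more had 18771 UMIs at the median, 20306 CPM of Clu, 216 CPM of Fabp1 and 158 CPM of Sox9. Just outside the rule, 25 barcodes with 1 or 2 Spp1 UMIs had 2738 CPM of Clu and 922 CPM of Fabp1, and 27 with none had 372 and 8659 CPM. Members with 3 to 5 Spp1 UMIs thus had less Clu and more Fabp1 than members with more Spp1 in these sums. Of their 244 Fabp1 UMIs, 219 were in 3 barcodes, and the other 12 had 279 CPM. The 25 barcodes with 1 or 2 Spp1 UMIs include the deepest hepatocyte barcode, and without it they had 1016 CPM of Clu. On the Tspan8 and Spink1 side, 9 members had 3 to 5 UMIs of the pair, and 10 barcodes with 1 or 2 were left out, which had 11192 CPM of Spp1 and 7156 CPM of Clu at only 673 UMIs each at the median. A further 21 control barcodes and 14 inhibitor barcodes had Spp1 without either gene. The control ones had 393 CPM of Clu and the inhibitor ones 1751 CPM. The mitochondrial limit left out 125 control barcodes and no inhibitor barcode that met the rest of the rule, with 72.7% mitochondrial UMIs and 580 genes at the median.

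Members were epithelial by their keratins. Krt8 and Krt18, the keratin pair of simple epithelia, were found in 103 and 106 members. Krt8 stood at 0, 22.1 and 126 per 10000 at the lowest, median and highest member, and Krt18 had a median of 29.7. Krt8 summed to 3337 CPM against 864 in hepatocyte and 25.8 in leukocyte barcodes. Krt18 summed to 3822 CPM against 1544 and 35.1. Nearly every member thus held both keratins, and leukocyte barcodes held little of either. The ratio to hepatocyte barcodes was 1.95 on the log2 scale for Krt8 (1.75 to 2.15) and 1.31 for Krt18 (1.16 to 1.46), and that of Krt18 was 0.90, short of 2-fold, when each barcode had equal weight.

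Epcam and Krt19, the bile duct genes among the markers given for these cells, were found in a minority of members only. Epcam, an adhesion molecule of ductal epithelium (ENSMUSG00000045394, chr17:87635979-87651129, plus strand), had 219 UMIs in 39 members, 105 CPM, and 23.7% of these were in 1 cell. Krt19 (ENSMUSG00000020911, chr11:100140810-100148665, minus strand) had 69 UMIs in 10 members, 33.1 CPM, with 44.9% in 1 cell, and Krt7 had 57 in 9 members. Most members held no UMI of any of these genes. Hepatocyte barcodes held 1 UMI of Epcam and none of Krt19, and leukocyte barcodes had 15.5 CPM of Epcam and no Krt19 UMI. With every barcode thinned to 1000 UMIs, Epcam was found in 9.80% of 102 members, in none of 56 hepatocyte barcodes and in 0.809% of 4819 leukocyte barcodes. Unthinned, these shares were 36.8%, 1.27% and 4.59%. Thinning left out 4, 23 and 43 barcodes that were too shallow.

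**Figure D1:**
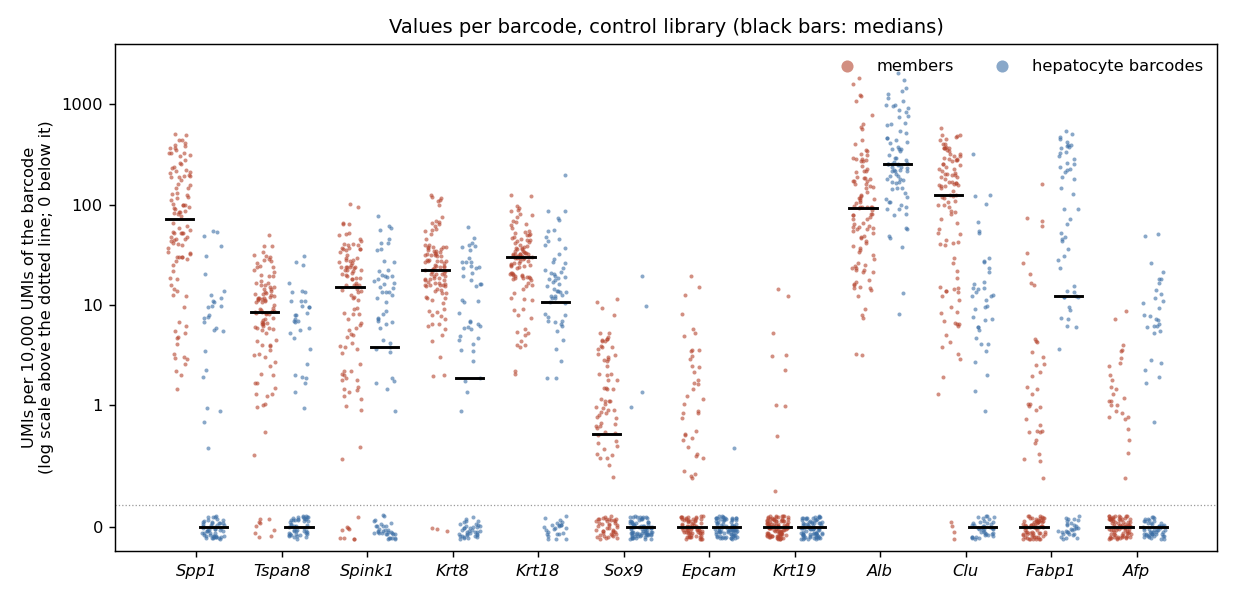
UMIs per 10000 UMIs of the barcode (log axis, with barcodes at 0 in a band below the dotted line) for 12 genes in the 106 members and the 79 hepatocyte barcodes of the control library. Each point is 1 barcode and each black bar a median. Spp1, which the rule used, lies above 0 in all members. Krt8, Krt18 and Clu lie high in most members, and Epcam, Krt19, Fabp1 and Afp are at 0 in most. Of the 79 hepatocyte barcodes, 50 hold Fabp1 and 29 hold Afp, so Afp is at 0 in most of these too. The ranges of the 2 groups overlap for each gene shown, and no hepatocyte barcode holds Krt19.

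To place these levels, 8052 genes with at least 20 UMIs over both sums were compared between members and hepatocyte barcodes, and 2279 of them (28.3%) were at least 2-fold higher in members and 399 (4.96%) at least 2-fold lower. The median log2 ratio was 0.37, above 0, and a gene without a UMI in 1 group entered at a floor of 3 UMIs. Relative to that median, 1488 were higher and 872 lower. Without the 3 members of over 1% haemoglobin UMIs, 2241 were higher and 404 lower. The whole counting interval lay past 2-fold for 191 genes higher (2.37%) and 118 lower (1.47%). Against leukocyte barcodes 13316 genes were compared, of which 3255 (24.4%) were at least 2-fold higher in members and 3254 (24.4%) at least 2-fold lower, with the whole interval past 2-fold for 2410 (18.1%) and 1921 (14.4%). List counts below are to be read against these shares. Some genes stand in several lists, and genes of a list that could not be compared had too few UMIs.

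All 5 genes given as markers of these cells were at least 2-fold higher in members than in hepatocyte barcodes, 3 of them with the whole interval, but 3 of the 5 are genes of the rule and the choice fixed their direction. Of 16 bile duct markers, 12 could be compared, and 10 were at least 2-fold higher than in hepatocyte barcodes, 8 with the whole interval, and none lower. The list summed to 1498 CPM in members, 302 CPM in hepatocyte barcodes and 111 CPM in leukocyte barcodes, and its median log2 ratio to hepatocyte barcodes was 2.49. Sox9, the transcription factor of bile duct and progenitor cells, was found in 64 members at 0, 0.52 and 11.3 per 10000. It summed to 151 CPM against 20.4, a log2 ratio of 2.89 (1.65 to 4.52). Dsg2, a desmosomal cadherin, had 354 CPM against 20.4, and Bicc1, an RNA-binding protein of ducts and tubules, 193 CPM against 24.4. Cldn7, a tight junction claudin, had 113 CPM against 20.4. Other ductal genes were nearly lacking: Aqp1, the water channel, had no UMI in members (upper bound 1.77 CPM), and Sctr, the secretin receptor, had 5. Unthinned, markers of junctions and ductal transcription were thus found in many members, while the mature ductal keratins and channels were rare. Thinned as above, Dsg2 was found in 25.5% of members and Krt19 in 2.94%. Sox9 and Cldn7 were found in 11.8% each, close to the 9.80% of Epcam. In thinned hepatocyte barcodes Sox9 was found in 3.57% (0.435 to 12.3), an interval that overlaps that of members (6.23 to 19.6). At equal depth, Sox9 and Cldn7 were therefore minority markers too.

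Transcription factors gave the same mixture. Of 11 biliary or progenitor factors compared, 8 were at least 2-fold higher in members than in hepatocyte barcodes, 2 with the whole interval, and none was lower, and the median log2 ratio was 1.36. Sox4, a factor of progenitor and tumour cells, was found in 79 members with a median of 2.99 and a highest value of 19.2 per 10000, and it had 350 CPM against 24.4 (log2 ratio 3.84, 2.71 to 5.29). Onecut2 had 140 CPM against 36.7. Of 13 hepatocyte factors, 2 were higher and 1 lower, with a median of -0.02. Hnf4a, the central hepatocyte factor, had 110 CPM against 93.7 and was found in 70 members, Foxa3 had 83.4 against 85.6 and Cebpa 103 against 122. Members therefore held biliary factors at levels above hepatocyte barcodes and hepatocyte factors at levels close to theirs.

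Junction and surface genes leaned the same way. Of 14 tight junction genes, 10 were at least 2-fold higher and 2 lower. Cldn3 had 456 CPM against 183, and F11r, a junctional adhesion molecule, 377 CPM against 85.6. Of 11 genes of adherens junctions and desmosomes, 8 were higher and none lower, among them Dsp with 69.5 CPM against 4.07. Among 6 simple epithelial keratins, 5 were higher and 1 was lower, Krt20 with 27.8 CPM against 77.4. Tspan8 was 1 of 14 tetraspanin genes compared, of which 9 were higher and none lower, 1 with the whole interval. Tspan8, which the rule used, is among the 9, so 8 of the other 13 were higher. Cd9 had 735 CPM against 281 and Cd63 had 652 against 261. Few of these lists' genes had a whole interval past 2-fold (2 higher of the tight junction genes, 3 of the adhesion genes and 3 of the keratins), so the lean rests on many small counts.

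Hepatocyte secreted proteins were abundant in members as well. Alb, serum albumin, was found in all 106, at 3.12, 92.6 and 1846 per 10000, and summed to 17072 CPM against 40078 in hepatocyte and 696 in leukocyte barcodes. The transport proteins Trf (9347 CPM against 12619) and Ahsg (7323 against 8455) and the apolipoprotein Apoe (14070 against 16971) were within 2-fold of hepatocyte barcodes. Alb thus had a UMI in each member, but 2 members were below the 6.96 per 10000 of the summed leukocyte barcodes. The share of all 22 secreted genes among a member's UMIs ran from 0.388% over a median of 5.44% to 31.6%, against a median of 0.104% in leukocyte barcodes. Of the 22, none was at least 2-fold higher than in hepatocyte barcodes and 10 were lower, with a median of -0.98, a direction that is partly fixed because these genes chose the hepatocyte barcodes. Against leukocyte barcodes all 22 were at least 2-fold higher, with a median of 5.12. The 10 most abundant genes of members were Clu, Alb, Apoe, Malat1, Trf, Fth1, Ahsg, Ftl1, Mup20 and Tpt1, and of these the nuclear RNA Malat1 had 9858 CPM against 2917. Alb was the reverse against the hepatocyte barcodes of the inhibitor library, with a log2 ratio of 0.55.

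Metabolic hepatocyte genes were lower than in hepatocyte barcodes. Of 23 compared, none was at least 2-fold higher and 13 were lower, 6 with the whole interval, with a median of -1.11, whereas 22 of 23 were at least 2-fold higher than in leukocyte barcodes. The list was thus between the other groups, below hepatocyte and above leukocyte barcodes. Uox, an enzyme of uric acid breakdown, had 221 CPM against 811. Without the mitochondrial limit the median of the list was 0.94.

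Genes of the zones of the liver lobule were mostly scarce. Of 14 genes of hepatocytes around the central vein, 4 had no UMI in members, among them Cyp2e1, a drug-metabolising enzyme with 32.6 CPM in hepatocyte barcodes. Glul, glutamine synthetase, had 22.1 CPM against 40.7. Of 5 that could be compared, none was at least 2-fold higher and 2 were lower. These were Rgn, a calcium-binding protein of hepatocytes, with 7.19 CPM against 342 (log2 ratio -5.57, -6.47 to -4.77), and Lect2, a secreted hepatocyte protein, with 5.27 CPM against 179. Of 11 genes of hepatocytes around the portal tract, 1 was at least 2-fold higher and 3 lower, with a median of -0.83, and the urea cycle gene Ass1 had 379 CPM against 709.

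The genes of fatty acid binding proteins, the family of the drug target, were lower than in hepatocyte barcodes where they could be compared. Fabp1, the liver form, was found in 38 members, at 0, 0 and 159 per 10000, and had 321 CPM against 10321 (log2 ratio -5.01, -5.13 to -4.88). Fabp5 was found in 30 members with 399 UMIs, 27.1% of them in 1 cell, and had 191 CPM against 1182 in hepatocyte and 208 in leukocyte barcodes. Fabp2, the intestinal form, had 120 CPM against 770. Leukocyte barcodes had less of both other genes than members, with 38.6 CPM of Fabp1 and 1.95 CPM of Fabp2. Each of these genes was at 0 in most members, although 63 of the 106 held a UMI of at least 1 of them. The 3 genes of the family that could be compared were all at least 2-fold lower, each with the whole interval. Thinned to 1000 UMIs, Fabp5 was found in 7.84% of members, 32.1% of hepatocyte and 7.01% of leukocyte barcodes (unthinned 28.3%, 38.0% and 19.3%). At equal depth, members held Fabp5 about as often as leukocyte barcodes did. The direction of Fabp5 depended on the reference. The inhibitor library's hepatocyte barcodes held no Fabp5 UMI, so the log2 ratio to them was at least 3.97, against the floor of 3 UMIs.

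Of the genes furthest above both comparison groups, Clu was the most abundant. Clusterin, its product, is a secreted chaperone. Clu (ENSMUSG00000022037, chr14:65968483-65981547, plus strand) was found in 102 members at 0, 125 and 586 per 10000 and was also the gene with the highest level in members, 19239 CPM (19051 to 19428), against 2298 in hepatocyte and 127 in leukocyte barcodes. Its log2 ratio to hepatocyte barcodes was 3.07 (2.95 to 3.19), and 4.15 without the deepest of them, which held 58.2% of their Clu UMIs. Tm4sf4, a membrane protein of the tetraspanin-like L6 family, was found in 94 members at 0, 21.3 and 107 per 10000 and had 2524 CPM against 367 and 18.8. These genes were found in nearly all members. Thinned, Clu was found in 85.3% of members, 53.6% of hepatocyte and 4.0% of leukocyte barcodes, and Tm4sf4 in 67.6%, 10.7% and 0.581% (unthinned 96.2%, 49.4% and 15.4% for Clu, and 88.7%, 19% and 2.02% for Tm4sf4).

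Several of these genes encode secreted or matrix proteins. Igfbp7, a binding protein of insulin-like growth factors, had 429 CPM against 12.2 in hepatocyte and 7.12 in leukocyte barcodes and was found in 60 members. Sftpd, a collectin first known from lung surfactant, had 358 CPM against 12.2 and 2.08. Gas6, the ligand of the TAM receptors, had 388 CPM against 48.9, Mfge8, a bridging protein for engulfment of dying cells, 685 against 118, and Sparc, a matrix protein, 177 against 16.3. The proteoglycan Prelp (105 CPM) and the matrix proteins Efemp1 (63.8 CPM), Spon2 (79.1 CPM) and Timp3 (65.7 CPM) were lower in level, and hepatocyte barcodes held at most 2 UMIs of each. Tff2, a mucosal trefoil peptide, had 183 CPM against 8.15, with 39.4% of its UMIs in 1 of the 38 members that held it. Wnt4, a Wnt ligand, had 131 CPM against 12.2.

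Others act within the cell or at its surface. Rgs5, a regulator of G protein signalling best known from pericytes, was found in 55 members at 0, 0.82 and 38.9 per 10000 and had 807 CPM against 16.3 and 3.20, a log2 ratio to hepatocyte barcodes of 5.63 (4.27 to 7.51). Rgs5 gave nearly the whole sum of 11 stellate cell and fibroblast markers, 824 CPM. Col1a1, Acta2, Des and Lrat, which define those cells, had no UMI in members and Pdgfrb had 1. Hspb1, a small heat shock protein, had 882 CPM against 126, and Pdzk1ip1, a membrane-associated protein of epithelia, 132 against 12.2. Trim47 had 84.9 CPM against 4.07, and the tubulin Tubb2b had 60.4 CPM and no UMI in hepatocyte barcodes. The non-coding RNA Snhg11 had 89.2 CPM and was at least 7.30-fold higher. The chemokine Ccl2 was found in 28 members with 380 CPM and no UMI in hepatocyte barcodes, at least 31.1-fold higher, but 33.8% of its UMIs were in 1 cell, and against the inhibitor library's hepatocyte barcodes its log2 ratio was -2.38.

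**Figure D2:**
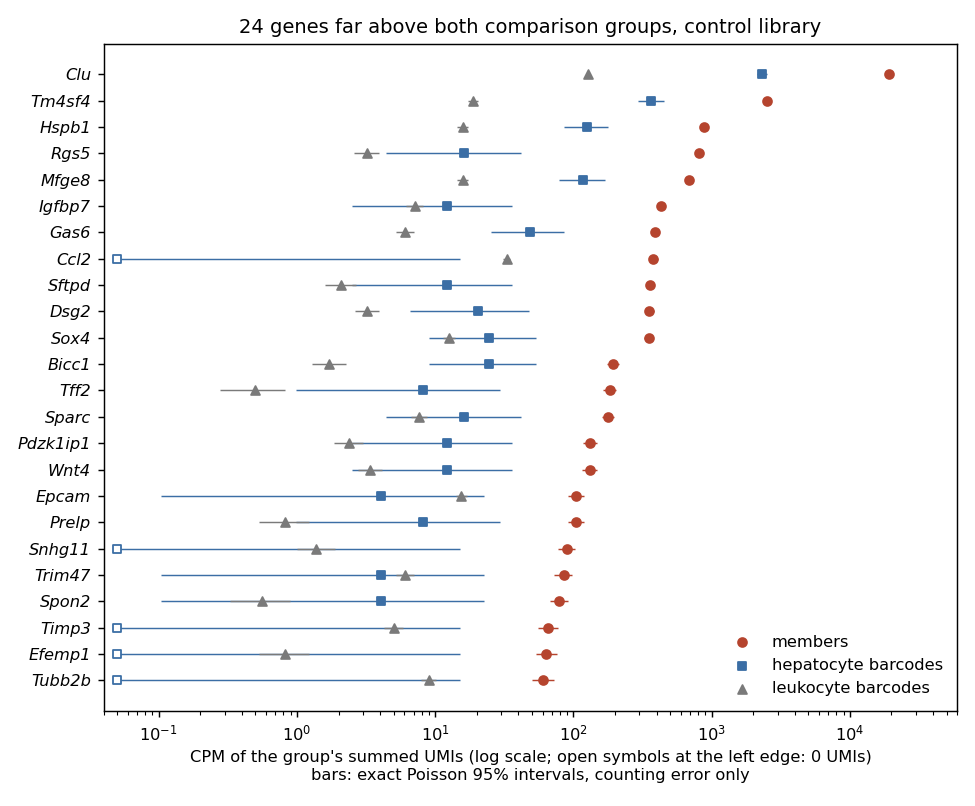
Level in CPM (log axis) of 24 of the 25 genes whose ratio interval lay furthest above both hepatocyte and leukocyte barcodes, in members (circles), hepatocyte barcodes (squares) and leukocyte barcodes (triangles) of the control library, with exact Poisson 95% intervals. Open squares at the left edge are genes with no UMI in hepatocyte barcodes. The genes were chosen for this separation, so it is a description. Clu at 19239 CPM and Tm4sf4 at 2524 CPM are the highest in members, and the wide bars of the hepatocyte barcodes show how few UMIs they hold.

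These ratios rest on few UMIs outside members. Of the 24 genes reported, 11 kept at least 2-fold under all other settings tried, namely Rgs5, Igfbp7, Sftpd, Clu, Dsg2, Sox4, Tm4sf4, Hspb1, Gas6, Mfge8 and Bicc1. Ccl2 changed direction as given above, and the other 12 fell short of 2-fold against the 20 hepatocyte barcodes without Spp1, Tspan8 or Spink1 UMIs, whose 31183 UMIs are too few to show a gene of low level. Epcam, for example, had a log2 ratio of 4.69 in the comparison with all hepatocyte barcodes and of at least 0.13 there, against the floor of 3 UMIs. Bicc1, the lowest of the 11 in members, had 193 CPM, and Tff2, the highest of the 12, had 183 CPM. The split thus follows the level in members, and it does not show that the 11 are firmer than the 12. Leaving out the deepest hepatocyte barcode moved Dsg2 to 5.27, Sox4 to 5.25, Tm4sf4 to 4.46 and Hspb1 to 4.78, and left 2 UMIs each of Dsg2 and Sox4 in the group.

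Among genes found in at least 25% of hepatocyte barcodes with at least 50 UMIs there, haemoglobin genes left out, the 10 furthest below hepatocyte barcodes were Fabp1, Fabp5 and Fabp2 with 7 others of hepatocyte lipid and intermediary metabolism or plasma transport. Agxt, an enzyme of glyoxylate breakdown, had 11 CPM against 224, and Bdh1, of ketone body metabolism, 33.6 against 293. Thrsp, which promotes lipogenesis, had 19.2 CPM against 208, and Pnpla7, a lysophospholipase, 111 against 856. The apolipoproteins Apoa4 and Apoc3 had 187 against 1365 and 440 against 2437, with 48.6% of the Apoa4 UMIs in 1 member. Afp, the fetal albumin relative used as a marker of liver cancer, had 71.0 CPM against 477 and was found in 27 members. Hepatocyte barcodes of the inhibitor library held no Afp UMI, so the log2 ratio to them was at least 2.53, against the floor of 3 UMIs. Under all other settings tried, Fabp1 stayed at least 2-fold lower, with log2 ratios of -2.26 or below. Apoc3 also stayed at least 2-fold lower wherever it could be tested. It is among the secreted protein genes that chose the hepatocyte barcodes, so its direction is partly fixed. The setting that left secreted genes out of the CPM could not test Apoc3. Agxt, Thrsp, Pnpla7, Apoa4, Bdh1 and Fabp2 came short of 2-fold without the mitochondrial limit or against the inhibitor library's hepatocyte barcodes.

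Known genes of liver tumours and progenitors were split. Of 15 compared, 6 were at least 2-fold higher than in hepatocyte barcodes and 2 lower, and the median log2 ratio was 0.82. Those higher included Cd24a, a surface glycoprotein, with 137 CPM against 20.4, and Cd44, an osteopontin receptor, with 137 CPM against 16.3 and 189 in leukocyte barcodes. Those lower were Afp and Gpc3, a surface proteoglycan, with 11 CPM against 53. Lcn2, an iron-binding protein of epithelial stress, had 1899 CPM against 2249, and Ly6d had 2403 against 1324, within 2-fold. The deepest hepatocyte barcode held 68.3% of the Ly6d UMIs of its group, so the ratio of Ly6d rests largely on that barcode. The fetal genes Igf2, Dlk1 and Igf2bp1 had no UMI in members, and H19 had 7, all in 1 cell. Fetal liver transcripts were thus few among members.

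Of 5 receptors of osteopontin that could be compared, 3 were at least 2-fold higher than in hepatocyte barcodes and none lower, while of 9 compared with leukocyte barcodes 1 was higher and 3 lower. Beside Cd44, the integrin chain Itgav had 88.7 CPM against 20.4, and Itgb1 had 127 against 28.5 in hepatocyte and 137 in leukocyte barcodes. Itgb5 had 48.9 CPM against 40.7. Members thus held mRNA of the ligand and of several of its receptors, the receptors at levels also seen in leukocyte barcodes.

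Mucosal genes were present in part. Of 27 mucosal and secretory genes, 12 had no UMI, and of 8 compared 5 were at least 2-fold higher and 1 lower. Tff3, a trefoil peptide, had 458 CPM against 192, and Pigr, the receptor that carries IgA into bile, 158 against 36.7. Of 12 pancreatic acinar genes, 10 had no UMI, and the only one compared, Cela1, had 71.4 CPM against 126. Of 8 intestinal genes, 4 had no UMI, and of the 2 compared Fabp2 was lower. Spink1, though high in the pancreas, therefore came with few acinar genes, and Tspan8 with few genes of intestinal identity.

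**Figure D3:**
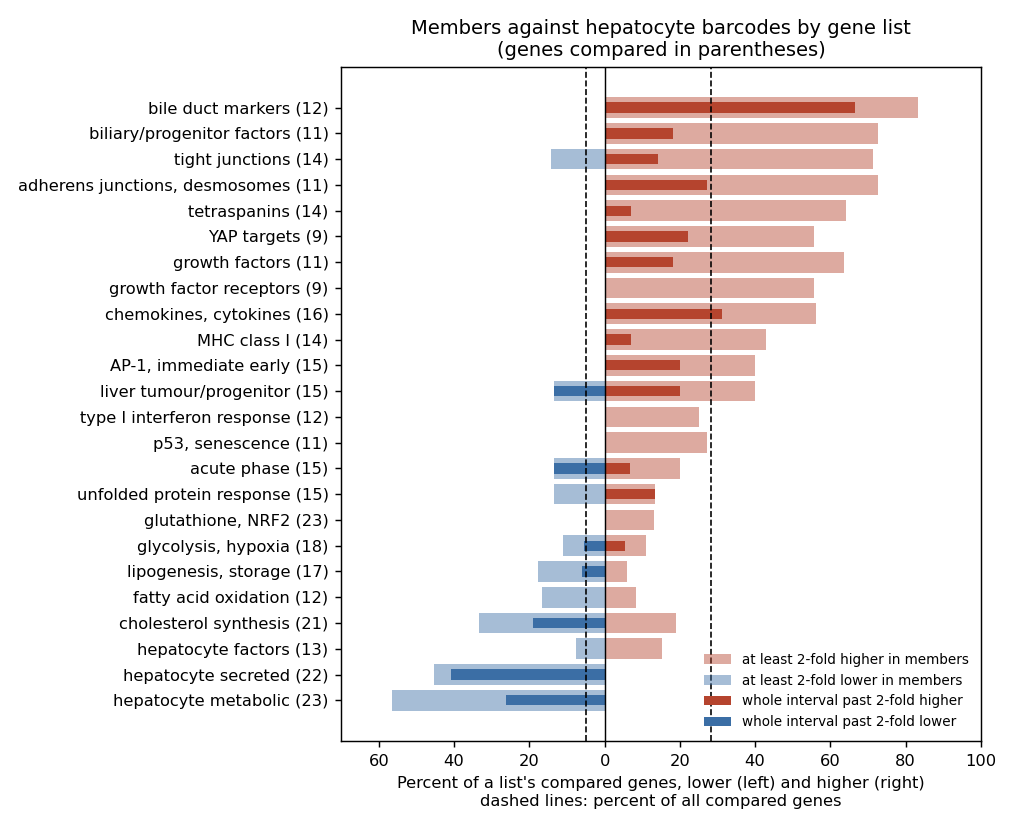
Percent of the compared genes of 24 lists that were at least 2-fold higher (right) or lower (left) in members than in hepatocyte barcodes, with narrow dark bars for genes whose whole counting interval lay past 2-fold. The dashed lines mark the percent of all compared genes, 28.3 higher and 4.96 lower. Among the 24 lists, bile duct markers reach furthest to the right, with 10 of 12, and hepatocyte metabolic genes furthest to the left, with 13 of 23.

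Genes of the Wnt, Notch and YAP pathways and of growth factors were compared list by list. Of 13 Wnt targets, 6 had no UMI, Lgr5, Tbx3, Lef1, Nkd1, Sp5 and Tcf7, and of 3 compared 1 was higher and 1 lower. Of 5 Notch pathway genes, 4 were at least 2-fold higher, 1 with the whole interval. The ligand gene Jag1 had 40.8 CPM and no UMI in hepatocyte barcodes, the receptor gene Notch2 41.2 CPM against 12.2 and the target Hes1 153 against 44.8. Of 9 YAP targets, 5 were at least 2-fold higher and none lower. Ctgf had 59.9 CPM and Ankrd1 77.7 CPM, neither with a UMI in hepatocyte barcodes, and 46.3% of the Ankrd1 UMIs were in 1 member. Cyr61 had 214 CPM against 69.3, and the deepest hepatocyte barcode held 94.1% of the latter. Of 9 growth factor receptors, 5 were higher and none lower, such as Met, the receptor of hepatocyte growth factor, with 36.4 CPM against 4.07. Of 11 growth factors, 7 were higher and none lower, such as Tgfb2 with 60.4 CPM against 4.07 and Pdgfa with 71.9 against 24.4.

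Transcripts of dividing cells were rare in members. Of 20 cell cycle genes compared with leukocyte barcodes, 1 was at least 2-fold higher in members and 15 were lower, with a median of -2.05. Mki67 had 1 UMI and Top2a none among all members, Ccnb1 had 6 in 1 cell, and Birc5 had 10. Against hepatocyte barcodes 2 of 10 were higher and 4 lower, where Ube2c had 2.40 CPM against 134, but 81.8% of the UMIs of the latter were in 1 barcode. Of 11 genes of p53 and senescence, 3 were higher and none lower. Cdkn1a, a cell cycle inhibitor, had 354 CPM against 477, and Cdkn2a, a senescence marker, was found in 18 members with 85.3 CPM against 61.1.

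Genes of antigen presentation were present at levels mostly between those of hepatocyte and leukocyte barcodes. Of 14 genes of MHC class I presentation, 6 were at least 2-fold higher than in hepatocyte barcodes and none lower, and none of 15 was higher and 7 were lower than in leukocyte barcodes. H2-K1 had 1961 CPM against 892 in hepatocyte and 2256 in leukocyte barcodes, H2-D1 1447 against 672, and B2m, their light chain, 1653 against 1088. Of 5 class II genes, 3 were higher than in hepatocyte barcodes, while all 8 compared with leukocyte barcodes were lower. Cd74, the invariant chain, was found in 74 members with 445 CPM, against 81.5 in hepatocyte and 11580 in leukocyte barcodes, and 25.3% of its UMIs were in 1 member. Of 12 genes of the type I interferon response, 3 were higher than in hepatocyte barcodes and none lower, near the share among all genes, and 11 of 15 were lower than in leukocyte barcodes. Of 6 ligands of immune receptors, 3 were higher and none lower than in hepatocyte barcodes, such as Nectin2 with 99.3 CPM against 16.3.

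Chemokine genes were often higher than in hepatocyte barcodes. Of 16 chemokines and cytokines, 9 were at least 2-fold higher, 5 with the whole interval, and none was lower. The median log2 ratio was 1.65. Cxcl1, which draws neutrophils, was found in 34 members with 176 CPM against 53. Cxcl16, the ligand of Cxcr6, had 156 CPM against 36.7 and 156 in leukocyte barcodes, and Ccl20 had 45.1 against 4.07. Mif, an inflammatory cytokine, had 776 CPM against 958. Single cells carried much of some of these genes, as 83.9% of the Cxcl5 UMIs, found in 11 members, and 43.7% of the Ccl5 UMIs were in 1 member each. Of 15 AP-1 and immediate early genes, 6 were higher than in hepatocyte barcodes and none lower, and 8 were lower than in leukocyte barcodes. Jun had 584 CPM against 224 and Junb 543 against 179, and without the deepest hepatocyte barcode, which held all the Jun UMIs of its group, the log2 ratio of Jun was at least 5.41, against the floor of 3 UMIs.

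Stress and metabolic lists were closer to hepatocyte barcodes. Of 23 glutathione and NRF2 genes, 3 were at least 2-fold higher and none was lower (median log2 ratio -0.14), and 18 of 24 were higher than in leukocyte barcodes. Of 15 genes of the unfolded protein response, 2 were higher and 2 lower, such as Herpud1 with 300 CPM against 85.6. Of 15 acute phase genes, 3 were higher and 2 lower, where Crp had 170 CPM against 36.7 and Orm1 346 against 1267. Of 18 glycolysis and hypoxia genes, 2 were higher and 2 lower, with Ldha at 408 CPM against 872, and of 12 genes of fatty acid oxidation 1 was higher and 2 lower. Of 12 mitochondrial mRNAs none differed by 2-fold. Genes of cholesterol synthesis differed most often among these lists, with 4 of 21 higher and 7 lower and a median of -0.82, and Fdps had 105 CPM against 440. Of 17 genes of lipogenesis and fat storage, 1 was higher and 3 lower, with the desaturase Scd1 at 230 CPM against 583. Of 9 genes of matrix and mesenchymal transition, 3 were higher and none lower, and Vim had 225 CPM against 16.3, with 34.5% of its UMIs in 1 member.

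Markers of other cell types were low in members, apart from Rgs5 and the erythroid genes given above. Monocyte and macrophage markers summed to 70.0 CPM against 13586 CPM in leukocyte barcodes, neutrophil markers to 50.3 against 5843, T and NK cell markers to 8.15 against 2884, B and plasma cell markers to 51.8 against 9866 and dendritic cell markers to 21.6 against 287. The rule itself limits several of these genes. Endothelial markers summed to 12.0 CPM, with Pecam1, Kdr and Cdh5 among 6 of 9 without a UMI, and mesothelial markers had 1 UMI in all, with 4 of 5 at 0.

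Variation between members was measured for each gene as the variance over that of counting at each cell's depth. The haemoglobin gene Hbb-bs, which the rule for named genes leaves out, had a ratio of 2289. Without genes of the rule for members, haemoglobin, antigen receptor, ribosomal protein and mitochondrial genes and genes with no name, the 15 most variable genes were led by Alb, with a ratio of 654, and by the apolipoprotein Apoa1 with 381. The glutathione transferase Gstm1, the major urinary protein Mup20, the nuclear RNA Malat1, Cyp2a4, Clu, Igfbp1, Ftl1, Apoe, Trf, Actb and Hp were also among them, as were Cxcl5 and Sprr1a, which few members held. Gstm1 was found in all members at up to 462 per 10000 around a median of 19.1, and Mup20 in 93 at up to 1281 around a median of 15.5. Mup20, Gstm1 and Cyp2a4 belong to families of near-identical genes whose reads the counting could split, so their levels are uncertain. Of Igfbp1, 53% of the UMIs were in 1 cell, as were 98.0% of those of the cornified envelope gene Sprr1a.

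Among members, bile duct markers and hepatocyte metabolic genes ran in opposite directions. Across the 106 members, the log2 summed level of bile duct markers per cell had a correlation of -0.62 with that of hepatocyte metabolic genes, and of -0.63 over the 90 members with at least 5000 UMIs. It had a correlation of 0.77 with tight junction genes, which share Cldn7 with it, of 0.55 with MHC class I genes and of 0.60 with Spp1. With hepatocyte secreted genes, bile duct markers also had a negative correlation, -0.49 over all members and -0.53 over the deeper 90. Hepatocyte transcription factors differed in this, with a correlation of 0.23. Spp1, a gene of the rule, had -0.15 with the secreted genes and 0.04 with acute phase genes. Glutathione and NRF2 genes went with hepatocyte metabolic genes (0.63) and against MHC class I genes (-0.68). Of the 176 genes found in at least 90% of members, Clu was the most correlated with Spp1 (0.69) and Cp, the copper carrier ceruloplasmin, was next (0.61). The plasma protein genes C3 and Ambp also went with Spp1 (0.50 each), while Ftl1 (-0.56) and Gstm1 (-0.55) went against Spp1, and Alb had -0.23. These values describe 1 library whose cells share their depth range and a common total, and bile duct markers also had a correlation of 0.43 with the UMIs per barcode, 0.08 over the deeper 90.

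**Figure D4:**
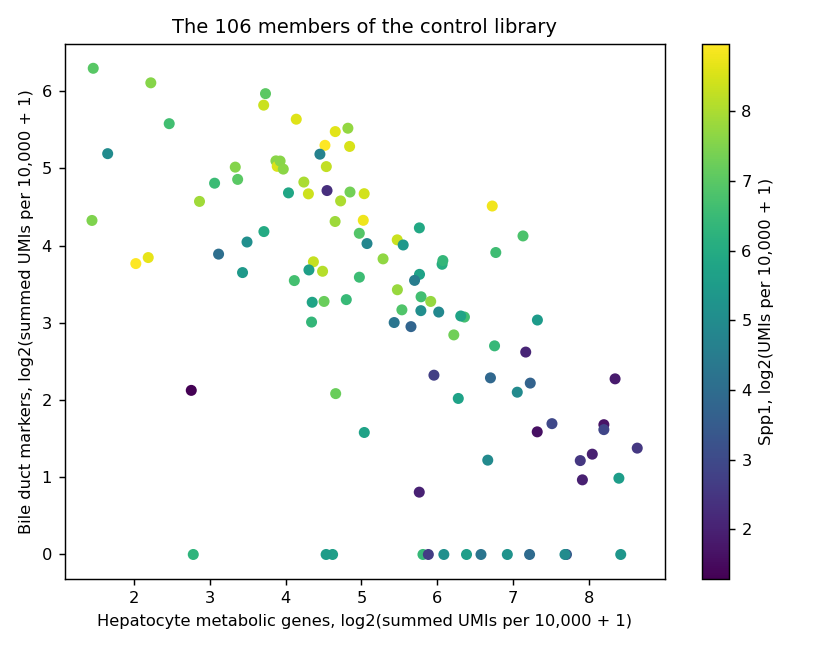
Each of the 106 control members by its hepatocyte metabolic genes (horizontal) and its bile duct markers (vertical), both as log2 of summed UMIs per 10000 plus 1, coloured by Spp1 on the same scale. Members fall along a broad downward slope, with a correlation of -0.62, and those with little Spp1 lie mostly at the lower right. The points at 0 on the vertical axis are the 13 members without a UMI of any bile duct marker.

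The 10 members with a Krt19 UMI lay at the biliary end, which the choice partly fixed, since Krt19 is itself among the bile duct markers. All 10 also held Epcam, Sox9 and Cldn7, and 6 held Krt7, at 17500 UMIs at the median against 15823.5 in the other 96. They had 642 CPM of Epcam against 35.2 in the other 96, 325 CPM of Cldn7 against 85.1 and 25028 CPM of Spp1 against 12249. They had 4522 CPM of Alb against 18702 and 8.34 CPM of Fabp1 against 361. Alb was found in all 10, at 7.43 per 10000 in the lowest, close to the 6.96 of the summed leukocyte barcodes. The median of the 10 was 52.9 per 10000, and 8 of them had at least 2 times the leukocyte level. Of the 39 members with an Epcam UMI, 36 also held Sox9 and 6 held Fabp1. Of the 27 members with an Afp UMI, 19 also held Sox9 and 12 held Epcam, so Afp did not exclude either gene. These 27 had 20248 UMIs at the median. Sox9 was found in 60.4% and Epcam in 36.8% of all control members, and an association of Afp with either was not tested. Krt19 members held little Afp. It was found in 2 of the 10, with 12.5 CPM against 78.6 CPM in the other 96.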

How the data were processed

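Droplet 3′ single-cell RNA sequencing of 2 libraries, control and inhibitor, was used. The values the authors deposited are raw counts of UMIs, for 31053 features in each barcode, not normalized. Per the file headers the matrices came from Cell Ranger 5.0.1. The submitters' processing notes name Cell Ranger, R 3.0, Seurat 3 and mm9. Of the identifiers, 30934 (99.6%) occur in GENCODE M21 on GRCm38, from which positions were taken, so the build behind the counts is uncertain.

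Members were chosen by the stated rule from the counts. Libraries held 53378693 (control) and 68074929 UMIs over 9493 and 10649 barcodes. Counts were summed per group with Python 3.11.15 and scipy 1.17.1. Ratios have exact conditional binomial intervals and levels exact Poisson intervals. A gene was compared with at least 20 UMIs over both sums, and 0 was set to 3 UMIs over the group. No p-value was computed, because each group has 1 library. The arithmetic was tested on simulated data. Doublets were scored against 2 simulated doublets per barcode, taking the highest 0.8% per 1000 barcodes, but none was removed except in 1 alternative.

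Named genes were the 25 with the highest lower bounds over both comparison groups (at least 50 UMIs, found in at least 25% of members), the 10 lowest against hepatocyte barcodes (same limits, within those barcodes), the 10 most abundant, the 15 most variable, and genes of 50 lists. These rankings omit genes of the members' rule, haemoglobin, antigen receptor, ribosomal protein and mitochondrial genes, and genes with no name. A few genes that this rule takes are not reported here. Members and lists were chosen with earlier results of these data known.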

Additional observations from a re-analysis of the deposited data

How the results depend on the processing

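The number of control members, 106, was 231 without the mitochondrial limit, 69 with a limit of 10% and 131 with 1 Spp1 UMI as the minimum. That of the inhibitor library was 0 once doublets were removed. Of 2279 genes at least 2-fold higher than in hepatocyte barcodes, 399 being lower, the counts were 7773 and 76 without the mitochondrial limit, 597 and 150 with at least 100 UMIs over both sums, 494 and 940 against hepatocyte barcodes without Spp1, Tspan8 or Spink1 UMIs, 191 and 118 with the whole interval past 2-fold, and 1488 and 872 relative to the median ratio. The lower count was 755 without a minimum of UMIs and 962 against the inhibitor library's hepatocyte barcodes. Against leukocyte barcodes, 3255 genes higher became 2062 with at least 100 UMIs, and 3254 lower became 1921 with the whole interval past 2-fold. Against the inhibitor library's hepatocyte barcodes, reversed log2 ratios were Ccl2 at -2.38, Fabp5 at 3.97 or more, Afp at 2.53 or more and Alb at 0.55. The values of Fabp5 and Afp are bounds set by the floor of 3 UMIs. Without the mitochondrial limit, the median of hepatocyte metabolic genes was reversed, at 0.94. The cause of these reversals was not tested. The other 46 alternative counts of genes stayed within 1.5 times the reported ones. The settings on subsets of hepatocyte barcodes (without the deepest, without Spp1, Tspan8 or Spink1 UMIs, and of at least 2000 UMIs), on the whole interval, on the median ratio, on members of at least 5000 UMIs and on haemoglobin were chosen after seeing the data. No paired analysis was possible because each group has 1 library. The 245420 UMIs of the hepatocyte barcodes limit every ratio of a rare gene.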
